A study of Homo sapiens with 14 samples.

Results

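The mitochondrial genome is a small circular DNA that codes for 37 genes, all carrying symbols that start with MT-, and every one of them was found in the count tables. They are 37 of the 58825 genes counted, taken by symbol alone, without regard to their values: 13 code for proteins, 2 for ribosomal RNAs and 22 for transfer RNAs. They were read in RNA-seq libraries of the ovarian cancer lines OVCAR-3, CAOV3 and SKOV3, treated with either GSK-J4 or GSK-J5 at a dose of 2.5 µM. GSK-J4 enters cells and inhibits KDM6A and KDM6B, also called UTX and JMJD3, which remove methyl groups from histone H3; GSK-J5 is a structural isomer that serves as the control. Treatment lasted 72 h, with 3 libraries per line and compound, and in OVCAR-3 also 48 h, with 2 per compound, so that 14 samples held 22 libraries. Every group was a cell line treated in culture, and the growth media differed between lines (RPMI for OVCAR-3, DMEM/F12 for CAOV3 and McCoy's medium for SKOV3). Replicates 1 and 2 formed the first library set, for which stripped medium during treatment and the RNeasy mini kit are stated, but not whether ribosomal RNA was removed. Replicate 3 formed the second set, with the RNeasy Plus kit, serum stated in the growth media and poly(A) enrichment, so that replicate number 3 and the set cannot be told apart. Untreated cells were not analysed here, and each difference is that of GSK-J4 from GSK-J5. The labels do not describe replicates as separate cultures, so a p-value covers only the spread between these libraries.

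Human mitochondrial DNA is transcribed as long RNAs from both of its strands. On the strand shared by most genes the order runs from the 2 rRNA genes through ND1, ND2, the cytochrome oxidase and ATP synthase genes to CYB, while MT-ND6 and 8 of the tRNA genes are read from the other strand. The tRNAs lie between many of the other genes, and cutting them out of the long RNA releases the rRNAs and mRNAs, an arrangement known as tRNA punctuation. The rRNAs build the mitochondrial ribosome, and the 13 proteins are subunits of respiratory complexes I, III and IV and of the ATP synthase.

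The sequences that separate the genes with the largest contrasts are given here, from the GENCODE release 29 transcripts on GRCh38. The tRNA genes are printed 5′ to 3′ with the anticodon in capitals. MT-TV lies between MT-RNR1 and MT-RNR2 (chrM:1602-1670, plus strand), MT-TL1 between MT-RNR2 and MT-ND1 (chrM:3230-3304, plus strand) and MT-TW directly after MT-ND2 (chrM:5512-5579, plus strand). MT-TD precedes MT-CO2 (chrM:7518-7585, plus strand), MT-TG lies between MT-CO3 and MT-ND3 (chrM:9991-10058, plus strand) and MT-TR between MT-ND3 and MT-ND4L (chrM:10405-10469, plus strand). MT-TP is the one tRNA gene with counts in every library (chrM:15956-16023, minus strand).
MT-TV: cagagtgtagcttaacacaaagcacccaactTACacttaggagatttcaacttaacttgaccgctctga
MT-TL1: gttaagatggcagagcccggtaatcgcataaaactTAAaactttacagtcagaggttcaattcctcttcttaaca
MT-TW: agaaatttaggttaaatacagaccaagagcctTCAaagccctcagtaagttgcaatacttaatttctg
MT-TD: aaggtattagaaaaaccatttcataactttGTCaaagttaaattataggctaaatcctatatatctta
MT-TG: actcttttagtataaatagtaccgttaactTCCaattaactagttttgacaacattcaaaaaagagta
MT-TR: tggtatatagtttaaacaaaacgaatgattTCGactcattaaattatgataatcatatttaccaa
MT-TP: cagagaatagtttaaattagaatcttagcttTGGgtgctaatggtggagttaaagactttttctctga

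No tRNA separates MT-ATP8 from MT-ATP6 or MT-ND4L from MT-ND4, and each pair overlaps. The last 60 bases of MT-ATP8 (chrM:8513-8572, plus strand) and the last 30 of MT-ND4L (chrM:10737-10766, plus strand) follow, with the 46 and 7 bases that also belong to the next gene in capitals. No source used here says how a read over shared bases was counted, so the split of counts within these pairs is uncertain.
MT-ATP8 end: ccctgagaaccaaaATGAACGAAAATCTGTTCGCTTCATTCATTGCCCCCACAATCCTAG
MT-ND4L end: gtacataacctaaacctactccaATGCTAA

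The libraries held between 24037007 and 37990707 counts each, and the mitochondrial genes took between 0.461% and 1.92% of them. The 95% Wilson intervals of the rRNA and protein shares reached at most 2.15% and 0.856% of the value to either side, and those of the tRNA share between 4.48% and 31.1%; they cover counting error only. All 5 epithelial markers looked at (EPCAM, KRT8, KRT18, KRT19 and PAX8) averaged at least 1 CPM (counts scaled to a common library total) in every line. Their summed level was lower in SKOV3 (903 to 1890 CPM with GSK-J5) than in CAOV3 (4960 to 5240 CPM) or OVCAR-3 (8520 to 9550 CPM). In OVCAR-3 it was 4310 to 8520 CPM with GSK-J4, and KRT8, KRT18 and KRT19 fell at 48 h. The TMM scaling factor of OVCAR-3 was 1.06 to 1.12 with GSK-J5 and 0.765 to 0.971 with GSK-J4, against 0.988 to 1.07 in the other lines. The part that these marker differences play in the results below was not tested. The class shares are also given below with TMM scaling. Of 8 markers of fibroblasts, leukocytes and endothelium, 2 reached a mean of 1 CPM in OVCAR-3, 2 in CAOV3 and 4 in SKOV3. They were COL1A1 in every line, with VWF in OVCAR-3, PECAM1 in CAOV3, and COL3A1, LUM and PECAM1 in SKOV3. COL1A1 was at 347 to 476 CPM in SKOV3, 30.3 to 55.2 CPM in CAOV3 and 7.29 to 49.3 CPM in OVCAR-3. Several markers split by replicate in SKOV3. With GSK-J5, replicates 1, 2 and 3 had 624, 891 and 41.8 CPM of KRT19. EPCAM, COL3A1, LUM and PECAM1 were also far lower in replicate 3. KRT8 was lower there to a lesser degree, while KRT18, PAX8 and COL1A1 were highest there. CD68 was at 0 in every OVCAR-3 library, as were COL3A1, DCN, LUM and PTPRC in every CAOV3 library. In these bulk samples, fewer mitochondria or mitochondrial genomes per cell and less RNA from each cannot be told apart.

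Among the 22 tRNA genes, 19 had no count in any library, which allows up to 3 counts in each. MT-TF had 1 count in all and MT-TC had 3. MT-TP, the proline tRNA gene, had 52 to 1998 counts per library and held at least 99.3% of each library's tRNA counts. Its level was 1.82 to 17.5 CPM in OVCAR-3, 33.4 to 65.2 CPM in CAOV3 and 9.15 to 41.4 CPM in SKOV3. Since the strand setting of the counting is not given, counts at MT-TP and MT-ND6 may include RNA of the opposite strand. MT-TP is the only tRNA gene that could be tested, and 16 mitochondrial genes in all passed the filter on low counts, with MT-RNR1, MT-RNR2 and the 13 protein genes. MT-ATP8 had 0 to 86 counts per library, against at least 2111 for MT-ATP6, with which it shares bases.

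The ribosomal RNAs showed the largest differences in counts between the compounds, and these were in OVCAR-3. Removal of ribosomal RNA is not stated for the first set, and the second was enriched for poly(A). The values are thus counts kept by the library preparation, not total rRNA amounts. The part that the preparation plays was not tested. At 48 h the 2 rRNA genes took 0.0736% and 0.0694% of all counts with GSK-J5 and 0.415% and 0.275% with GSK-J4. At 72 h the shares were 0.0435%, 0.0322% and 0.0961% with GSK-J5 and 0.381%, 0.318% and 0.257% with GSK-J4. Every GSK-J4 library of OVCAR-3 was above every GSK-J5 library at both times. In CAOV3 the values were 0.266%, 0.275% and 0.276% with GSK-J5 and 0.333%, 0.296% and 0.257% with GSK-J4, so that replicates 1 and 2 were higher and replicate 3 lower. In SKOV3 they ran from 0.175% to 0.243% with GSK-J5 and from 0.179% to 0.248% with GSK-J4, and overlapped.

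The share of the 13 protein genes went the other way in OVCAR-3. At 48 h it was 0.875% and 1.03% with GSK-J5 and 0.692% and 0.496% with GSK-J4. At 72 h the values were 0.722%, 0.428% and 0.939% with GSK-J5 and 0.280%, 0.207% and 0.798% with GSK-J4. Each GSK-J4 library was below the GSK-J5 library of the same number, but at 72 h the third GSK-J4 library lay within the range of the controls. The labels do not pair libraries by number, so such matches are only descriptions. The rRNAs made up 6.31% to 7.75% of all mitochondrial counts at 48 h with GSK-J5 and 35.6% to 37.4% with GSK-J4. At 72 h they made up 5.68%, 7.0% and 9.27% with GSK-J5 and 57.6%, 60.5% and 24.3% with GSK-J4. CAOV3 had 0.804%, 0.813% and 1.07% on the protein genes with GSK-J5 and 0.680%, 0.666% and 0.987% with GSK-J4, again lower in each number. In SKOV3 the shares were 0.755%, 0.665% and 1.60% with GSK-J5 and 0.781%, 0.755% and 1.67% with GSK-J4, slightly higher in each number.

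These class measures were compared with an exact two-sided permutation test within line, time and library set, on the log2 scale and adjusted over 5 measures. Over all 22 libraries the rRNA share was 2.01-fold higher with GSK-J4 (mean log2 difference 1.01, exact permutation p = 0.00694, adjusted p = 0.0116, higher in 6 of 7 strata). The protein share was 1.26-fold lower (mean log2 difference -0.34, permutation p = 0.00559, adjusted p = 0.0116, lower in 5 of 7 strata). For the tRNA share the difference was 0.21 (permutation p = 0.216, higher in 4 of 7 strata). With counts scaled by TMM, the differences were 1.14 for rRNA, -0.21 for protein and 0.34 for tRNA. Their adjusted p were 0.0174, 0.0370 and 0.083 in the same permutation test. The OVCAR-3 strata had the largest rRNA differences: the share differed there by 2.24 at 48 h, by 3.22 in the first set at 72 h and by 1.42 in the second. In CAOV3 the same measure differed by 0.21 in the first set and by -0.10 in the second, and in SKOV3 by 0.03 in each. In OVCAR-3 alone, over 10 libraries, the rRNA share was 4.90-fold higher and the protein share 1.64-fold lower, each with a permutation p of 0.0278, the smallest that this design can give (adjusted p = 0.0347). No single line at 72 h can go below 0.167, nor OVCAR-3 at 48 h below 0.333. Without replicate 1 the adjusted p over all libraries was 0.182 for both shares, and without replicate 2 it was 0.156; with 1 library per compound in each stratum, the smallest p is then 0.0156.

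**Figure D1:**
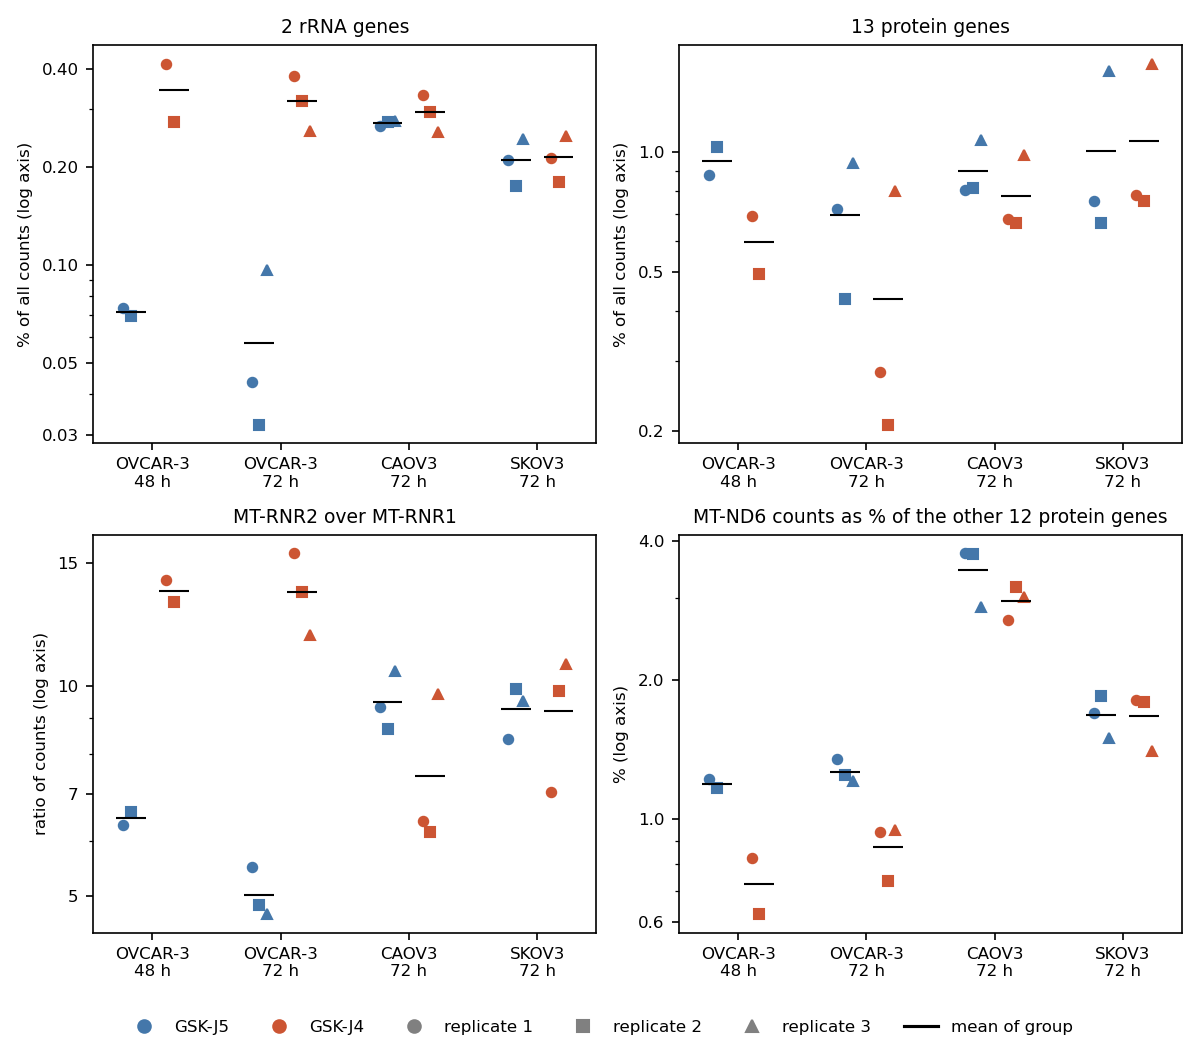
Share of all counts on the 2 rRNA genes and on the 13 protein genes, the ratio of MT-RNR2 to MT-RNR1 counts and MT-ND6 counts as a percentage of the other 12 protein genes, on log axes, for each of the 22 libraries (symbols give the replicate, lines the group mean). The OVCAR-3 libraries with GSK-J4 lie above those with GSK-J5 for the rRNA share (0.257% to 0.415% against 0.0322% to 0.0961%) and for the rRNA ratio (11.8 to 15.5 against 4.71 to 6.61).

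The 2 rRNAs differed in the size of the change. MT-RNR1, the small-subunit rRNA (chrM:648-1601), stood at 91.9 and 86.2 CPM with GSK-J5 at 48 h in OVCAR-3 and at 291 and 203 CPM with GSK-J4. At 72 h its levels were 62.5, 49.7 and 151 CPM with GSK-J5 and 297, 284 and 206 CPM with GSK-J4. MT-RNR2, the large-subunit rRNA (chrM:1671-3229), stood at 580.2 and 569.9 CPM at 48 h with GSK-J5 and at 4132 and 2674 CPM with GSK-J4. At 72 h it was at 344, 241 and 708 CPM with GSK-J5 and at 4611, 3876 and 2439.5 CPM with GSK-J4. For both genes the groups did not overlap at either time, and at 72 h the second set showed the smaller gap. At 48 h, 6 mitochondrial genes were higher and 7 lower without overlap, and 3 overlapped. The share of all genes without overlap was not computed, so a lack of overlap, here and below, is only a description.

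In the edgeR quasi-likelihood test of 48 h, fitted over all 10 OVCAR-3 libraries, MT-RNR2 rose 6.04-fold (log2 2.60, SE 0.55, adjusted p = 0.0257). MT-RNR1 had a log2 difference of 1.50 (SE 0.47, adjusted p = 0.0567). At 72 h, with all 6 libraries, the log2 difference was 3.19 for MT-RNR2 (SE 0.55, 95% interval 1.84 to 4.53) and 1.74 for MT-RNR1 (SE 0.46, interval 0.61 to 2.88), both with an adjusted p of 0.0700. In the first library set alone both genes rose, MT-RNR2 by 15.3-fold (log2 3.93, SE 0.20) and MT-RNR1 by 5.45-fold (log2 2.45, SE 0.13).

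Accordingly, MT-RNR2 had 6.31 and 6.61 counts for each count of MT-RNR1 with GSK-J5 at 48 h and 14.2 and 13.2 with GSK-J4. At 72 h the ratios were 5.50, 4.85 and 4.71 with GSK-J5 and 15.5, 13.7 and 11.8 with GSK-J4. The gap held in both library sets, with log2 differences of 1.49 in the first and 1.33 in the second. In CAOV3 the ratios were 9.33, 8.67 and 10.5 with GSK-J5 and 6.40, 6.17 and 9.73 with GSK-J4. The third GSK-J4 library of CAOV3 was above 2 of the 3 controls, so the groups overlapped, and the lower ratio did not pass (adjusted p = 0.417, exact permutation test). SKOV3 had 8.39, 9.91 and 9.52 with GSK-J5 and 7.05, 9.85 and 10.7 with GSK-J4, which overlapped as well. Over OVCAR-3 the ratio was 2.47-fold higher with GSK-J4 (10 libraries, exact permutation p = 0.0278, adjusted p = 0.0347). Over all lines the log2 difference of 0.48 did not pass (p = 0.0421, adjusted p = 0.0526, exact permutation test).

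Among the protein genes of OVCAR-3, 2 of the 3 that code for cytochrome c oxidase (complex IV) passed at 48 h. MT-CO1, its catalytic subunit (chrM:5904-7445), was at 1707 and 2190.4 CPM with GSK-J5 at 48 h and at 753 and 521 CPM with GSK-J4. MT-CO3, another core subunit (chrM:9207-9990), was at 905 and 1118.5 CPM and at 296 and 225 CPM. Both fell at 48 h: MT-CO1 2.99-fold (log2 -1.58, SE 0.32, adjusted p = 0.0242) and MT-CO3 3.80-fold (log2 -1.93, SE 0.36, adjusted p = 0.0214). MT-CO2, the subunit that takes electrons from cytochrome c (chrM:7586-8269), stood at 814 and 1021 CPM with GSK-J5 and at 1009 and 551 CPM with GSK-J4. Its groups overlapped, and its log2 difference was -0.20 (SE 0.41, adjusted p = 0.723).

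At 72 h MT-CO1 was at 1623, 919 and 2734 CPM with GSK-J5 and at 558, 452 and 1604 CPM with GSK-J4. MT-CO3 was at 767, 461 and 977 CPM with GSK-J5 and at 154, 173 and 661 CPM with GSK-J4. MT-CO2 was at 652, 377 and 797 CPM with GSK-J5 and at 1002.5, 719 and 719 CPM with GSK-J4. The third GSK-J4 library had more MT-CO1 and MT-CO3 than replicate 2 of the controls, so the groups overlapped. Each GSK-J4 library lay below its own number for both genes, but the labels do not state such pairs. The log2 differences with all 6 libraries were -1.16 for MT-CO1 (SE 0.28), -1.48 for MT-CO3 (SE 0.34) and 0.44 for MT-CO2 (SE 0.34), with adjusted p of 0.0700, 0.0700 and 0.351.

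No complex I gene passed at 48 h, or at 72 h with both library sets. MT-ND1 and MT-ND2 are membrane-arm subunits whose genes follow the rRNAs (chrM:3307-4262 and chrM:4470-5511). MT-ND2 was at 893 and 1034 CPM with GSK-J5 at 48 h and at 1671 and 1220.2 CPM with GSK-J4, without overlap. At 72 h it was at 522, 309.8 and 446 CPM with GSK-J5 and at 685, 472 and 1164 CPM with GSK-J4, with the second GSK-J4 library below the first control. Its log2 differences were 0.62 at 48 h (SE 0.33, adjusted p = 0.189) and 0.77 at 72 h (SE 0.31, adjusted p = 0.115). MT-ND1 had 0.43 (SE 0.31) and 0.14 (SE 0.29).

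MT-ND4, another membrane-arm subunit (chrM:10760-12137), was at 1092 and 1421 CPM with GSK-J5 at 48 h and at 703 and 573 CPM with GSK-J4. At 72 h it was at 1037, 569 and 1093 CPM with GSK-J5 and at 193, 149.8 and 1273 CPM with GSK-J4. Replicates 1 and 2 with GSK-J4 were the lowest of all, and the third was the highest of the 6 libraries. Its log2 differences were -0.95 (SE 0.55, adjusted p = 0.216) and -1.46 (SE 0.56, adjusted p = 0.104).

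MT-ND5 (chrM:12337-14148), at 260.1, 167 and 394 CPM with GSK-J5 at 72 h, had 100.1, 74.6 and 443 CPM with GSK-J4 and showed the same split between sets. MT-ND3 (chrM:10059-10404) was at 516 and 414 CPM with GSK-J5 at 48 h and at 911 and 591 CPM with GSK-J4, with a log2 difference of 0.72 (SE 0.38, adjusted p = 0.183). The short MT-ND4L (chrM:10470-10766), which shares bases with MT-ND4, had only 11.2 to 48.0 CPM at 72 h, and its log2 difference was -0.09 (SE 0.46).

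MT-ND6 (chrM:14149-14673), the complex I gene on the other strand, was at 96.3 and 113 CPM with GSK-J5 at 48 h and at 60.3 and 32.1 CPM with GSK-J4. At 72 h it was at 89.6, 47.5 and 100.3 CPM with GSK-J5 and at 33.6, 19.8 and 77.1 CPM with GSK-J4. Its log2 differences were -1.14 (SE 0.43, adjusted p = 0.0863) and -1.04 (SE 0.36, adjusted p = 0.0853). Relative to the other 12 protein genes it was at 1.22% and 1.17% with GSK-J5 at 48 h and at 0.824% and 0.623% with GSK-J4. At 72 h the values were 1.35%, 1.24% and 1.21% with GSK-J5 and 0.939%, 0.735% and 0.947% with GSK-J4, again without overlap. This ratio was lower with GSK-J4 over all 22 libraries (mean log2 difference -0.30, exact permutation p = 0.00251, adjusted p = 0.0116, lower in 5 of 7 strata). In CAOV3 it was at 3.75%, 3.73% and 2.88% with GSK-J5 and at 2.69%, 3.17% and 3.02% with GSK-J4, and in SKOV3 at 1.50% to 1.85% and 1.41% to 1.81%. The adjusted p was 0.182 without replicate 1 and 0.156 without replicate 2.

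MT-ATP6, a subunit of the proton channel of ATP synthase (chrM:8527-9207), was at 641 and 828 CPM with GSK-J5 at 48 h in OVCAR-3 and at 518 and 419.8 CPM with GSK-J4. At 72 h it was at 560.2, 305 and 558 CPM with GSK-J5 and at 142, 108 and 607 CPM with GSK-J4. The third GSK-J4 library was thus above all controls and the other two below all of them. The log2 differences were -0.62 (SE 0.46, adjusted p = 0.326) and -1.18 (SE 0.46, adjusted p = 0.105). MT-CYB, the cytochrome b of complex III (chrM:14747-15887), was at 606, 325 and 674 CPM with GSK-J5 at 72 h and at 207, 174 and 666 CPM with GSK-J4, with a log2 difference of -0.88 (SE 0.35, adjusted p = 0.111). MT-ATP8 (chrM:8366-8572) had too few counts for a useful estimate, with 9, 7 and 58 counts with GSK-J5 and 13, 0 and 17 with GSK-J4. MT-TP had log2 differences of 1.03 at 48 h (SE 0.58) and 0.49 at 72 h (SE 0.47), neither of which passed.

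**Figure D2:**
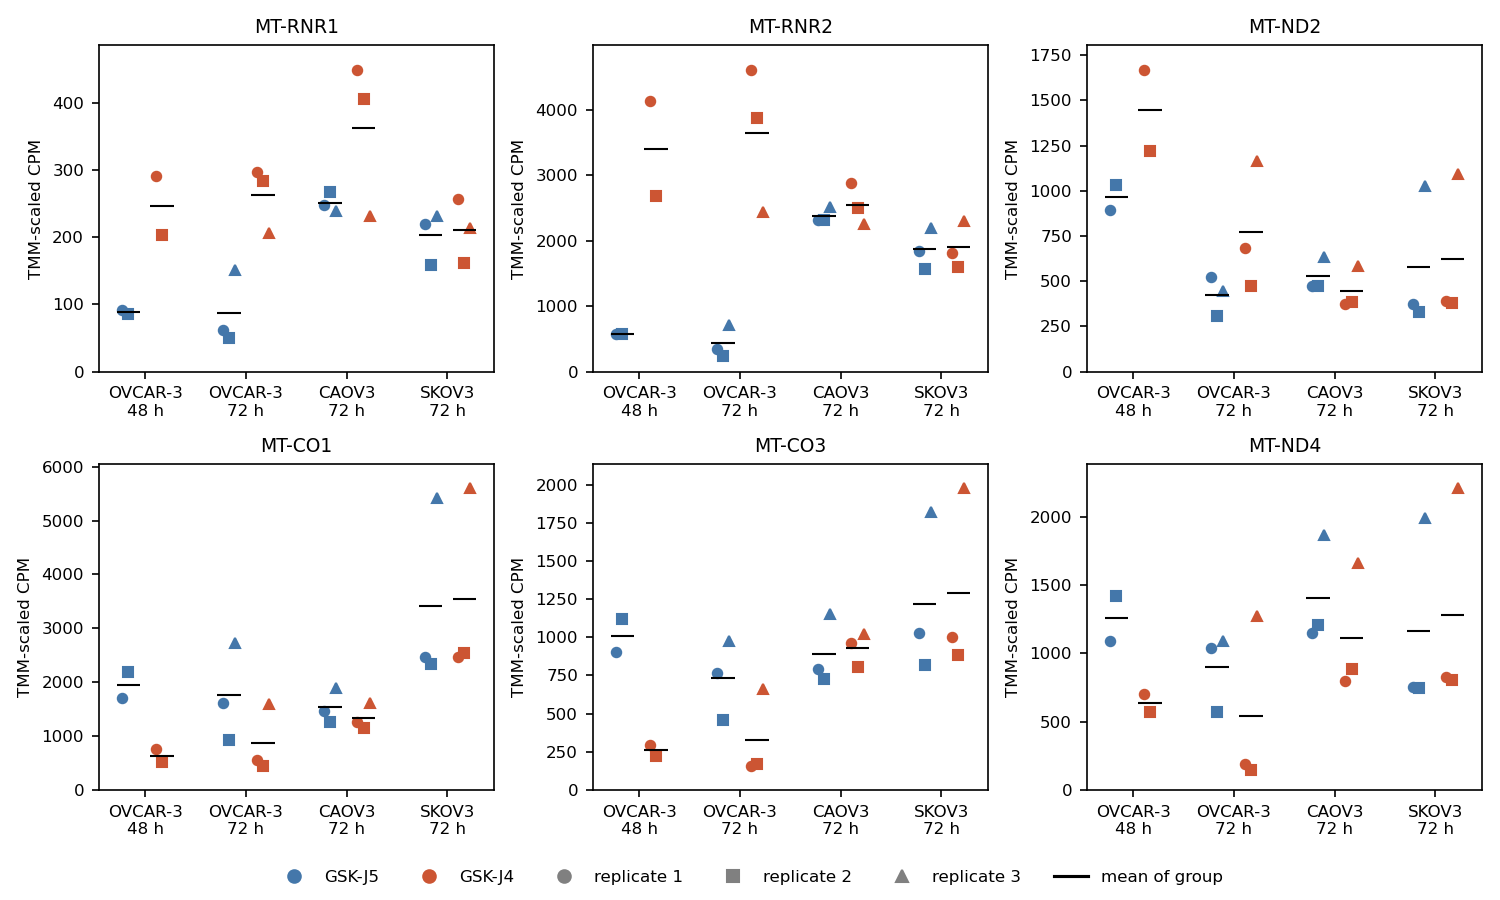
TMM-scaled CPM of both rRNA genes and of MT-ND2, MT-CO1, MT-CO3 and MT-ND4 in each library, on linear axes from 0, by line, time and compound (symbols give the replicate, lines the group mean). In OVCAR-3 at 72 h the third GSK-J4 library stands apart from the other two, with 1273 CPM of MT-ND4 against 193 and 149.8 CPM.

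In total, 1 of the 16 tested mitochondrial genes rose and 2 fell at 48 h in OVCAR-3 (6.25% and 12.5%), where 11.3% of all 17402 genes tested rose and 7.63% fell. The shares are near the background. Their median log2 difference was 0.12, and that of all genes was -0.03. Leaving out any 1 of the 4 libraries of 48 h left 0 of the 16 called, and 0 of all genes tested. At 72 h, edgeR called none with all 6 libraries, against 0.0298% of genes higher and 0% lower among 16802, while 9 of the 16 had an unadjusted p under 0.05, as had 43.1% of all genes. DESeq2 called 8 of them (3 higher, 5 lower), where it called 19.9% of all genes higher and 17.8% lower. With limma voom 0 of the 16 passed, and 0.0238% and 0% of all genes. In the first library set alone, 2 of 15 rose and 6 fell (13.3% and 40%), against 34.6% and 37.1% of 16281 genes; the share that fell is near the background and the share that rose below it. Those that fell were MT-CO1, MT-ATP6, MT-CO3, MT-ND4, MT-ND5 and MT-CYB, with MT-ND4 lowest at a log2 difference of -2.15 (SE 0.36). Leaving out only the third GSK-J5 library of 72 h, or only the third GSK-J4 library, gave 7 calls in each case (2 higher, 5 lower). Of all genes, 31.5% were then higher and 36.1% lower without the control library, and 31.5% and 33.9% without the GSK-J4 library, so that these counts too lie near or below the background.

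The difference between the effect at 72 h and at 48 h passed for none of the 16 genes in edgeR, DESeq2 or limma voom, and none had an unadjusted p under 0.05, which 7.35% of all genes had. Over all 17402 genes, 0.00575% were higher and 0% lower. The intervals were wide, for MT-RNR2 from -0.96 to 2.19, so a difference of several fold between the times was not detectable here. Without replicate 3, the effect was higher at 72 h for 2 of the 16 and lower for 0, near or below the background of 11.9% and 15.2% of 17090 genes.

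**Figure D3:**
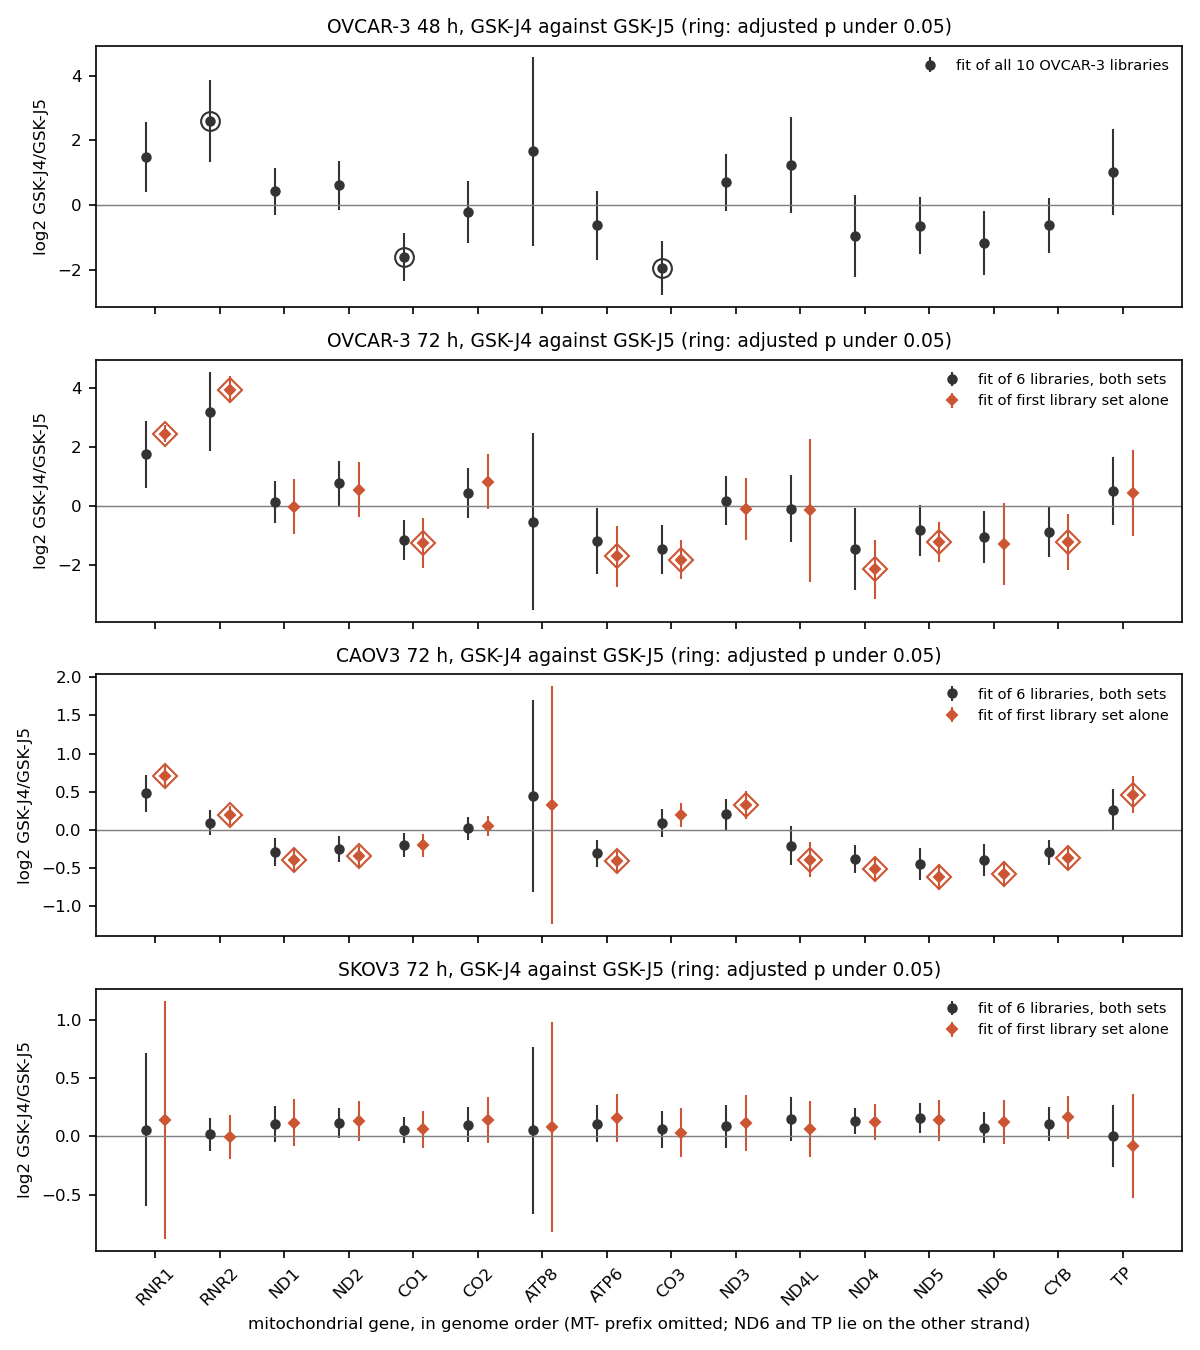
Log2 difference between GSK-J4 and GSK-J5 with its 95% interval for the 16 tested mitochondrial genes in genome order, in each line and time. Circles are fits with both library sets, diamonds fits of the first set alone, and rings mark an adjusted p under 0.05; the vertical scales differ. In OVCAR-3 MT-RNR2 stands highest, at 2.60 at 48 h and 3.19 at 72 h, while all 16 genes of SKOV3 lie between 0.01 and 0.16 with both sets.

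Because the genes are transcribed in order, each difference was also set against gene position. This was done over the 13 genes on the common strand with enough counts (both rRNA genes and the protein genes except MT-ATP8 and MT-ND6). In OVCAR-3 at 72 h the log2 difference was lower the farther a gene lay from the rRNA end (Spearman's rho -0.615, Pearson's r -0.719). The values were -0.47 and -0.54 in OVCAR-3 at 48 h, -0.57 and -0.51 in CAOV3, and 0.64 and 0.62 in SKOV3. With gene length rho was 0.00549 in OVCAR-3 at 72 h, -0.242 at 48 h, -0.335 in CAOV3 and -0.0659 in SKOV3. With GC content it was -0.396, -0.525, -0.157 and -0.127 in the same order, so that at 48 h it was larger in size than with position. The 13 genes share libraries and depth and are no independent replicates, so these are descriptions. MT-RNR1 and MT-RNR2 come first in the order and had the highest differences in OVCAR-3 at both times. No correlation was computed without them. A difference between rRNA and protein genes therefore cannot be told apart here from a trend with position. The order was not smooth: MT-CO1 fell at 48 h while its neighbours MT-ND2 and MT-CO2 did not pass, and MT-CO3 fell while MT-ATP6 and MT-ND3 beside it did not pass. In the first set at 72 h, 3 of the 6 protein genes that fell end in an incomplete stop codon, to which poly(A) addition supplies the missing bases, as do 3 of the other 7.

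The make-up of the protein-coding counts shows the same contrast without any scaling between libraries. MT-ND2 held 11.2% and 10.6% of the counts on the 13 protein genes with GSK-J5 at 48 h in OVCAR-3 and 22.6% and 23.5% with GSK-J4. At 72 h it held 7.75%, 8.02% and 5.32% with GSK-J5 and 19.0%, 17.4% and 14.2% with GSK-J4. MT-CO1 held 21.4% and 22.5% against 10.2% and 10.0% at 48 h, and 24.1%, 23.8% and 32.6% against 15.5%, 16.7% and 19.5% at 72 h. MT-CO3 held 11.3% and 11.5% against 4.01% and 4.33% at 48 h, and 11.4%, 11.9% and 11.6% against 4.28%, 6.40% and 8.04% at 72 h. For these 3 genes the compounds did not overlap in OVCAR-3 at either time, in either library set. The same held for MT-ND6, which was lower with GSK-J4, and for MT-ND1, which was higher. MT-ND1 held 4.3% and 4.3% against 7.6% and 8.6% at 48 h. At 72 h it held 4.6%, 4.3% and 5.6% against 6.5%, 7.7% and 9.2%. The other protein genes overlapped at 48 h, at 72 h or at both. MT-CO2 at 72 h was at 9.68%, 9.75% and 9.49% with GSK-J5 and at 27.8%, 26.6% and 8.75% with GSK-J4, a gap that replicate 3 lacked. In SKOV3 MT-CO1 held 33.2% to 35.8% with GSK-J5 and 32.6% to 34.5% with GSK-J4, and MT-ND2 5.00% to 6.41% and 5.11% to 6.48%. These shares sum to a fixed total, so a rise in one gene lowers the others.

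**Figure D4:**
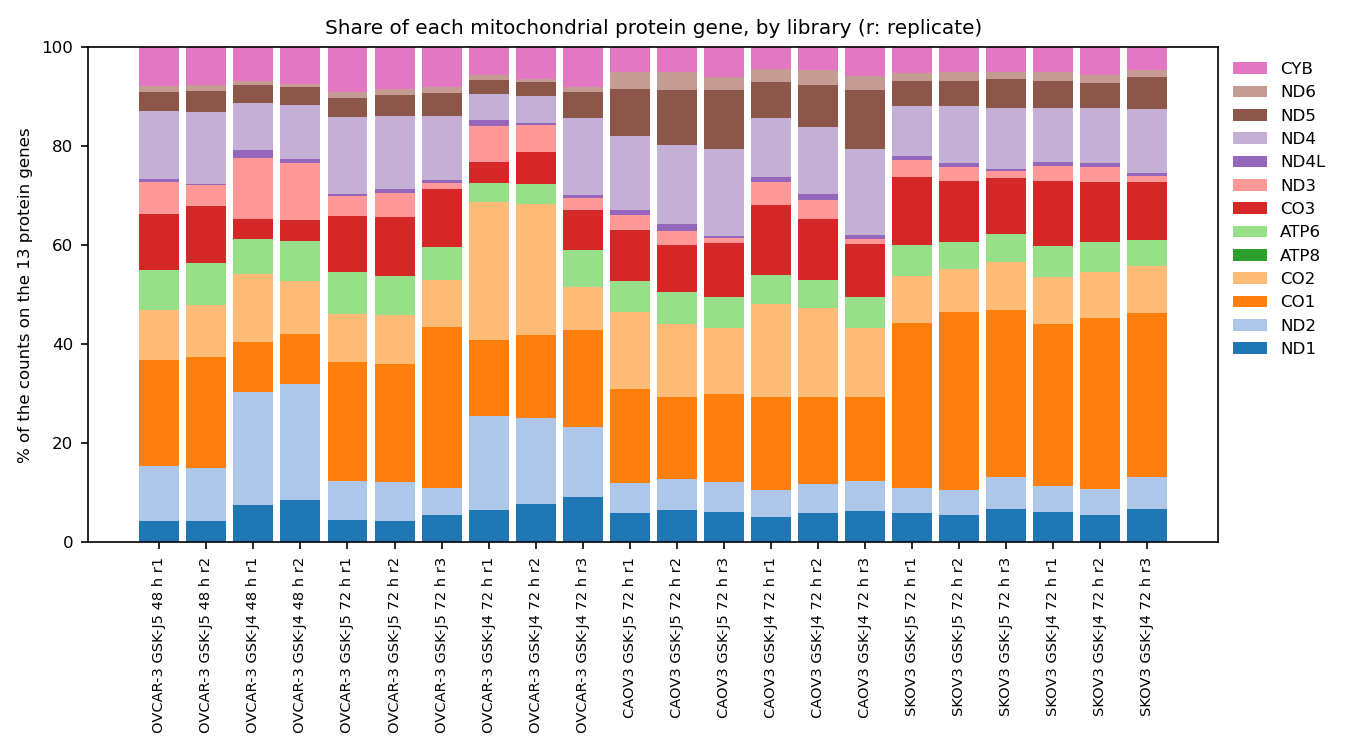
Share of each protein gene among the counts on the 13 mitochondrial protein genes, in percent, 1 bar per library. MT-ND2 takes 14.2% to 23.5% in the OVCAR-3 libraries with GSK-J4 and 5.32% to 11.2% in those with GSK-J5.

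In CAOV3 the log2 differences of the 16 genes lay between -0.44 and 0.48. MT-ND5 was at 727, 843 and 1265 CPM with GSK-J5 and at 492, 550.5 and 1134 CPM with GSK-J4. MT-ND4 was at 1152, 1212 and 1865 CPM and at 801, 888 and 1659.9 CPM. MT-RNR1 was at 248, 267 and 239 CPM with GSK-J5 and at 449, 406 and 231 CPM with GSK-J4. In each case replicates 1 and 2 showed the gap, and in replicate 3 it was small or absent. With all 6 libraries edgeR called none of the 16, with 0.0642% of 17137 genes higher and 0.251% lower, while 10 had an unadjusted p under 0.05, against 16.3% of all genes. The lowest adjusted p was 0.0587, for MT-ND5 (log2 -0.44, SE 0.10). DESeq2 called 7 (1 higher, 6 lower), with 1.7% and 2.19% of all genes, and limma voom 6 (1 higher, 5 lower), with 1.2% and 1.92%.

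The first library set of CAOV3 alone gave 4 mitochondrial genes that rose and 8 that fell of 16 (25% and 50%), against 6.7% and 7.38% of 16554 genes. MT-RNR1 rose 1.63-fold (log2 0.71, SE 0.075), MT-RNR2 1.14-fold, MT-ND3 1.26-fold and MT-TP 1.38-fold. MT-ND5 fell 1.53-fold (log2 -0.62, SE 0.08), and MT-ND1, MT-ND2, MT-ATP6, MT-ND4L, MT-ND4, MT-ND6 and MT-CYB fell by 1.27-fold to 1.49-fold. Leaving out the third library of either compound gave 14 calls (5 higher, 9 lower), with 6.82% and 7.61% of all genes without that of GSK-J5 and 6.79% and 7.53% without that of GSK-J4. Leaving out any other library gave 0. Without the third library of 1 compound, the set term takes up that of the other. Those fits thus rest on replicates 1 and 2, like the first set alone. Between OVCAR-3 and CAOV3, which share no library, 2 genes rose in the first set of both, MT-RNR1 and MT-RNR2 (100% of those that rose in OVCAR-3 and 50% in CAOV3). MT-ATP6, MT-ND4, MT-ND5 and MT-CYB fell in both (66.7% and 50%), and no mitochondrial gene was called in opposite directions. In the first set of OVCAR-3, 34.6% of all genes rose and 37.1% fell. The share of all genes called in both lines was not computed, so this overlap is only a description.

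SKOV3 showed no called mitochondrial gene. MT-RNR2 was at 1845, 1568 and 2197 CPM with GSK-J5 and at 1810.0, 1589 and 2299.5 CPM with GSK-J4, and MT-CO1 at 2472, 2346 and 5421 CPM and at 2476, 2545 and 5600.4 CPM. The groups overlapped for both, and the third library of each compound had by far the most MT-CO1. Of 16981 genes, 0.0236% rose and 0.0177% fell. The 16 mitochondrial log2 differences lay between 0.01 and 0.16, and 2 had an unadjusted p under 0.05, against 3.5% of all genes. DESeq2 and limma voom called 0 as well. The 95% interval was -0.12 to 0.16 for MT-RNR2 and -0.06 to 0.17 for MT-CO1, so changes of the size measured in OVCAR-3 lie outside them. The first set alone likewise gave 0 calls and 0 of the 16 with an unadjusted p under 0.05 (4.2% of all genes), with 0.0242% and 0.0666% of 16515 genes called higher and lower.

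The effects were then compared between lines in 1 fit of the 18 libraries of 72 h, which share 1 estimate of the spread. MT-RNR2 changed more in OVCAR-3 than in CAOV3 by a log2 difference of 3.10 (SE 0.43, adjusted p = 0.00165) and than in SKOV3 by 3.18 (SE 0.43, adjusted p = 0.00200). MT-ND2 also had a higher effect in OVCAR-3 than in CAOV3 (log2 1.03, SE 0.29, adjusted p = 0.0235). MT-CO1 and MT-CO3 had a lower one, by -0.95 (SE 0.25) and -1.55 (SE 0.34). In all, 2 of 16 were higher and 2 lower against CAOV3, with 12.7% and 6.63% of 20252 genes. Against SKOV3, 2 were higher and 6 lower, with 13% and 7.83% of all genes: MT-RNR1 was the other higher gene (1.69, SE 0.44), and the lower ones were MT-CO1, MT-ATP6, MT-CO3, MT-ND4, MT-ND6 and MT-CYB. The share that was lower there (37.5%) stood above the background, and the other shares near it. Without replicate 1 or without replicate 2, none of the 16 passed in either comparison. Between CAOV3 and SKOV3 none of the 16 passed in edgeR, DESeq2 or limma voom, none had an unadjusted p under 0.05 (5.32% of all genes had), and 0% of all genes passed in either direction.

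In the controls the lines differed in the mitochondrial RNAs themselves. Levels are compared between genes per kilobase of gene (CPM per kb), as means of the 3 GSK-J5 libraries of 72 h. In SKOV3 MT-CO1 was highest at 2213 ± 1128.5 CPM per kb (SD, n = 3), then MT-CO3 at 1557.5 ± 674 and MT-CO2 at 1381 ± 776. In CAOV3 the order was MT-CO2 at 1828 ± 227, MT-RNR2 at 1525 ± 71.7 and MT-CO3 at 1135 ± 292. In OVCAR-3 it was MT-CO1 at 1141 ± 594, MT-CO3 at 937 ± 331 and MT-CO2 at 889.8 ± 312. MT-ATP8 was the lowest protein gene in each line, at 4.11 to 8.61 CPM per kb. MT-ND4L, MT-ND5 and MT-ND6 were next in OVCAR-3, at 115, 151 and 151 CPM per kb. In OVCAR-3 and SKOV3 each of the top 3 genes lay within the SD of its neighbour in this order.

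**Figure D5:**
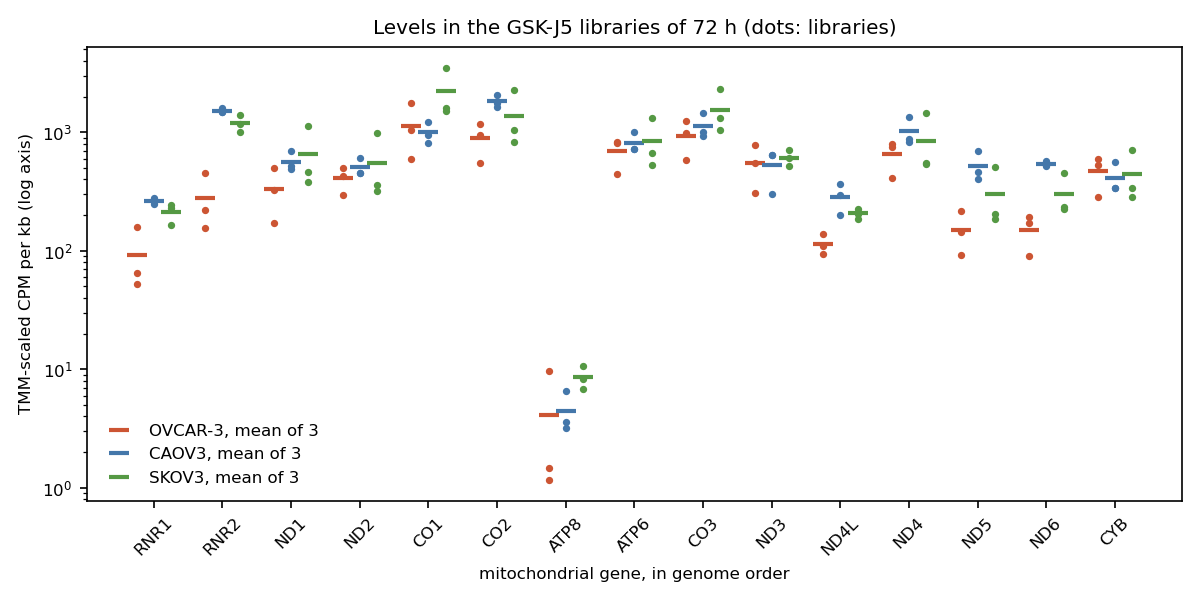
TMM-scaled CPM per kb of gene length in the GSK-J5 libraries of 72 h, on a log axis, for both rRNA genes and the 13 protein genes (dots are libraries, bars means of 3). MT-RNR2 averages 276 CPM per kb in OVCAR-3, 1525 in CAOV3 and 1199.5 in SKOV3.

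OVCAR-3 had less MT-RNR2 than CAOV3, by a log2 difference of -2.57 (SE 0.25), and than SKOV3, by -2.19 (SE 0.25). MT-RNR1 was lower by -1.66 (SE 0.30) and -1.30 (SE 0.30). For both rRNAs these are counts kept by the library preparation, not total amounts. MT-ND5 and MT-ND6, neighbours on opposite strands, were both lower in OVCAR-3 than in CAOV3, by -1.82 (SE 0.19) and -1.88 (SE 0.24). MT-TP was 9.61-fold lower. In total 9 of the 16 were lower in OVCAR-3 than in CAOV3 and none higher (56.2% and 0%), against 27.6% and 26.9% of 19079 genes. Likewise 9 were lower than in SKOV3 and none higher, against 28% and 29.4%. MT-CYB, MT-ATP6, MT-ATP8, MT-ND2 and MT-ND3 passed in neither comparison. Between CAOV3 and SKOV3, 3 were higher in CAOV3 (MT-ND5, MT-ND6 and MT-TP) and 1 lower (MT-CO1, log2 -1.03, SE 0.22), against 30.4% and 29.4% of genes. These 3 comparisons share control libraries and are given side by side. With GSK-J4, MT-RNR2 in OVCAR-3 (2439.5 to 4611 CPM at 72 h) overlapped and exceeded its levels in the CAOV3 controls (2312 to 2506 CPM).

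The 2 library sets were compared over the GSK-J5 libraries of 72 h. The log2 difference of the second set from the first was above 0 for 14 of the 16 genes and below it for MT-ND3 (log2 -0.72, SE 0.22) and MT-ND4L (-0.07, SE 0.20). The highest difference was that of MT-TP (1.20, SE 0.39), and MT-ND5 had 1.00 (SE 0.16, adjusted p = 0.0782). No mitochondrial gene passed in edgeR, with 0% of 19079 genes higher and 0.0314% lower, but 14 of the 16 had an unadjusted p under 0.05, against 11.8% of all genes. DESeq2 called 9 higher and 1 lower, with 1.14% and 1.54% of all genes, and limma voom 2 higher and 0 lower, with 0.215% and 0.561%. The part that kit, medium and poly(A) enrichment play in the smaller effects of replicate 3 was not tested.

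Nuclear genes that serve the mitochondrial genome were read from 5 lists. At 48 h in OVCAR-3, 8 of their 79 tested genes rose and 4 fell (10.1% and 5.06%), near the background of 11.3% and 7.63% of all genes. As for the mitochondrial genes, none of these calls held when any 1 of the 4 libraries of 48 h was left out, since 0 of all genes tested then passed. For transcription and replication of mitochondrial DNA, 3 of 17 genes rose and 0 fell at 48 h in OVCAR-3, with a list median of 0.18 (all genes -0.03). TOP1MT, the mitochondrial topoisomerase, rose by 1.69 on the log2 scale (SE 0.38), TWNK, the replicative helicase, by 1.16 (SE 0.16), and POLRMT, the mitochondrial RNA polymerase, by 0.99 (SE 0.18). POLRMT stood at 93.4 and 104.5 CPM with GSK-J5 and at 179 and 207 CPM with GSK-J4, without overlap. TFAM, which packages mitochondrial DNA and starts its transcription, had a log2 difference of -0.20 (SE 0.18, adjusted p = 0.414).

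Among 21 genes of mitochondrial RNA processing and stability, 1 rose and 4 fell at 48 h (list median 0.00). For this and the other lists the background was 11.3% of all genes higher and 7.63% lower. TRMT10C, a subunit of the mitochondrial RNase P that cuts the 5′ ends of tRNAs, fell by 1.54 on the log2 scale (SE 0.42). It was at 67.7 and 64.3 CPM with GSK-J5 and at 22.2 and 22.2 CPM with GSK-J4. FASTKD3, an RNA-binding protein of the organelle, fell by 1.45 (SE 0.28). LRPPRC, which stabilises mitochondrial mRNAs, had 0.35 (SE 0.25, adjusted p = 0.310). Of 18 tested RNA modification genes 1 rose (METTL15, an rRNA methyltransferase, 0.68, SE 0.16), of 15 translation factors 1 rose (TACO1, a translational activator of MT-CO1, 1.07, SE 0.28), and of 8 biogenesis regulators 2 rose. These 2 were TFEB, a transcription factor of lysosomal genes (2.47, SE 0.30), and ESRRA, a nuclear receptor of mitochondrial genes (1.45, SE 0.29).

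At 72 h with both sets edgeR called none of the list genes in any line, with an unadjusted p under 0.05 for 38 of 79 in OVCAR-3 (48.1%), 7 of 78 in CAOV3 (8.97%) and 0 of 79 in SKOV3. Of all genes 43.1%, 16.3% and 3.5% had such a p, so the list genes lay near or below the background. LRPPRC was at 159, 166 and 195 CPM with GSK-J5 in OVCAR-3 and at 290.1, 402 and 267 CPM with GSK-J4, with a log2 difference of 0.86 (SE 0.24, adjusted p = 0.0702). POLRMT had 0.45 (SE 0.18, adjusted p = 0.110) and TFAM -0.49 (SE 0.19, adjusted p = 0.106). In CAOV3 these 3 genes differed by -0.04, -0.01 and 0.01, and in SKOV3 by -0.04, 0.13 and -0.08, with no call.

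In the first set of OVCAR-3 at 72 h, 35 of 78 list genes rose and 27 fell (44.9% and 34.6%), where 34.6% of all genes rose and 37.1% fell. By list, 9 genes of the transcription list rose and 7 fell of 17, and 9 rose and 10 fell of 21 processing genes. Of the modification genes 4 rose and 4 fell of 18, of translation factors 10 rose and 3 fell of 14, and of biogenesis regulators 3 rose and 3 fell of 8. The medians were 0.34, -0.37, -0.09, 1.12 and -0.01, beside -0.09 for all genes. PRORP, the nuclease of the mitochondrial RNase P, fell by 2.85 on the log2 scale (SE 0.37) and TRMT10C by 1.73 (SE 0.11), while TOP1MT rose by 2.51 (SE 0.13). PPARGC1A, a coactivator of mitochondrial biogenesis, fell by 3.44 (SE 0.29). For TRMT10C replicate 3 went the other way, with 44.8 CPM for GSK-J5 and 55.7 CPM for GSK-J4. So did PPARGC1A, with 2.80 and 3.02 CPM, while PRORP was at 3.35 and 2.99 CPM and TOP1MT at 34.2 and 64.1 CPM. Levels were low for PPARGC1A (0.565 to 7.01 CPM at 72 h in OVCAR-3) and PRORP (0.424 to 4.83 CPM). In the first set of CAOV3, 3 of 78 list genes rose (PDE12 by 0.35, TBRG4 by 0.29 and TUFM by 0.27 on the log2 scale) and 2 fell (POLG by 0.35 and PPRC1 by 0.44). Their shares of 3.85% and 2.56% are below the 6.7% and 7.38% of all genes.

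The effect of GSK-J4 at 72 h was higher in OVCAR-3 than in CAOV3 for 13 of the 79 list genes and lower for 4 (16.5% and 5.06%), near the 12.7% and 6.63% of all genes. Against SKOV3 it was higher for 15 and lower for 4 (19% and 5.06%), with 13% and 7.83% of all genes. Without replicate 1, 0 of all genes passed in either comparison, and without replicate 2, 1 passed against CAOV3 and 0 against SKOV3. The LRPPRC effect was higher in OVCAR-3 than in CAOV3 (0.92, SE 0.20, adjusted p = 0.00877) and than in SKOV3 (0.91, SE 0.20, adjusted p = 0.00918). TOP1MT differed by 2.04 and 2.01 (SE 0.33 in each), TFEB by 2.46 and 2.54 (SE 0.26 in each), and TRMT61B, a tRNA methyltransferase, by -1.62 from CAOV3. Among the controls, 27 of the 79 were higher and 19 lower in OVCAR-3 than in CAOV3 (34.2% and 24.1%), near the 26.9% and 27.6% of all genes.

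Copies of mitochondrial DNA in the nuclear genome can take reads from the mitochondrial genes. The 417 such genes in the tables had 376 to 2369 counts per library, or 0.281% to 1.02% of the mitochondrial counts. The 5 with the most counts, MTATP6P1, MTCO1P12, MTND2P28, MTCO3P12 and MTCO2P12, lie beside each other on chromosome 1. Their log2 differences in OVCAR-3 at 48 h were -0.66, -1.12, 0.49, -1.86 and -0.51, beside -0.62, -1.58, 0.62, -1.93 and -0.20 for the mitochondrial genes they copy. None of these copies passed at 48 h. The counts of a copy and its source cannot be told apart where their sequences are the same.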

How the data were processed

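The authors deposited raw counts per gene, as whole numbers without normalization, in 3 tables of 58825 Ensembl identifiers. Per the submitters' processing notes, STAR and DESeq2 were used with GRCh38 (hg38). Which tool counted, with which strand setting and annotation, is not given in the sources used here. Symbols came from a gene name table (58472 identifiers) and GENCODE release 29 (345), and 8 stayed unnamed. A header with a shortened time was read as OVCAR-3 GSK-J4 72 h, replicate 3, the only sample left. Genes were kept by filterByExpr (minimum count 10), scaled by TMM and tested in R 4.3.3 with edgeR 4.0.16 (glmQLFit, robust), with the library set as covariate and Benjamini-Hochberg adjustment over all genes (threshold 0.05). SE and 95% intervals were worked back from the F statistic. CPM levels use TMM factors over all 22 libraries. Fits of some comparisons were tried on simulated data with the same spread for every gene and no difference between library sets. This trial therefore does not cover the departure of replicate 3. Alternatives used DESeq2 1.42.0, limma 3.58.1 and the settings of the closing section. All rRNA and protein genes are named, tRNA genes with a mean of at least 10 counts, the 2 called members with the largest change of each list, and TFAM, POLRMT and LRPPRC; POLRMT and TRMT10C are given with further values. Members, lists and tests were chosen with earlier results of these data known. Same-numbered libraries correlated above 0.1 in all 3 pairs in SKOV3 only (0.446, 0.449 and 0.781), from the data and not the labels. There, replicates 1 and 2 also correlated across numbers (0.347 and 0.384). Their correlations with replicate 3 were -0.579 to -0.547, so set and number cannot be told apart in these values.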

Additional observations from a re-analysis of the deposited data

Results flagged for a closer look

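The effect of GSK-J4 at 72 h differed between lines, by the edgeR test of the difference itself over 18 libraries, for 12 results. Against CAOV3, the log2 effect in OVCAR-3 was higher by 3.10 for MT-RNR2 and by 1.03 for MT-ND2, and differed by -0.95 for MT-CO1 and by -1.55 for MT-CO3. Against SKOV3 it was higher by 1.69 for MT-RNR1 and by 3.18 for MT-RNR2. It differed from SKOV3 by -1.20 for MT-CO1, -1.28 for MT-ATP6, -1.53 for MT-CO3, -1.58 for MT-ND4, -1.11 for MT-ND6 and -0.98 for MT-CYB. The OVCAR-3 libraries are the same in both comparisons.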

How the results depend on the processing

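Counts of called mitochondrial genes moved with the settings, and the cause was not tested. In OVCAR-3 at 72 h the count of 0 became 8 with DESeq2's Wald test, 3 without the filter on low counts, 10 in the fit of 18 libraries, 8 in the fit of 10 libraries and 8 in the first library set alone; leaving out a replicate or library gave 0 to 8. In CAOV3 the count of 0 became 7 with DESeq2, 6 with limma voom, 7 without the filter and 12 in the first set alone, and 0 to 14 when a replicate or library was left out. In SKOV3 it was 0 under every setting run. At 48 h in OVCAR-3 the count of 3 became 5 with DESeq2, 1 without the set term and 9 in a fit of the 4 libraries of 48 h alone, and 0 to 4 on leaving out a replicate or library. The difference between 72 h and 48 h had 0 calls, and 0 to 2 with a replicate or library left out (1 without the third GSK-J4 library, 2 without the third GSK-J5 library). The difference of OVCAR-3 from CAOV3 (4 calls) had 9 without the filter, 1 without the set term and 0 to 7 on leaving out a replicate. That from SKOV3 (8 calls) had 5 with limma voom, 1 without the set term and 0 to 9 on leaving out a replicate. In the controls, OVCAR-3 against SKOV3 went from 9 to 5 without the set term, and CAOV3 against SKOV3 from 4 to 2 without it and from 2 to 9 on leaving out a replicate. The difference between library sets (0 calls) had 10 with DESeq2, 2 with limma voom and 1 without the filter; without replicate 3 it could not be fitted. The share of all genes called moved as well, over the settings run from 0% to 71.7% in OVCAR-3 at 72 h, to 62% at 48 h and to 14.4% in CAOV3. Also from 0%, it reached 0.237% in SKOV3, 27% for 72 h minus 48 h and 2.68% between library sets. For the difference of OVCAR-3 from CAOV3 and from SKOV3 it ran from 0% to 41.5% and to 42.1%. Among the controls it was 31.7% to 62.2% for OVCAR-3 against CAOV3 and 33.6% to 64.7% against SKOV3. For CAOV3 against SKOV3 it was 35.3% to 67.2%. Where 1 library per arm remained, that library was taken to vary like the others. Where the third library of only 1 compound was left out, the set term took up that of the other. At 72 h such fits rest on replicates 1 and 2 and are no separate check.

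Leaving out a replicate moved the mean log2 difference of the rRNA share between 0.97 and 1.42, that of the protein share between -0.51 and -0.31 and that of the MT-ND6 ratio between -0.43 and -0.26; without replicate 1 or 2 none of these passed. Over all settings, 2287 gene values kept their side of the threshold, 184 newly passed, 87 no longer passed and 0 changed direction with a call. Values without a call could change sign, as for MT-ND1 in OVCAR-3 at 72 h, which ran from -0.07 to 0.49.

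With the replicate number as a block, OVCAR-3 at 48 h had 0 called mitochondrial genes and 0 called among all genes, the difference of OVCAR-3 from SKOV3 had 4 and that from CAOV3 4, and no other count of these comparisons changed. For the block, the log2 differences of the class measures were 1.16 for rRNA, -0.40 for protein and -0.35 for the MT-ND6 ratio, all still called. In every line the labels give libraries only a number. Same-numbered correlations outside SKOV3 were -0.0961 to 0.0381 in OVCAR-3 at 72 h, 0.0211 to 0.262 in CAOV3 and 0.113 at 48 h.

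With 0 counts in any library for 19 tRNA genes and 0 to 86 counts per library for MT-ATP8, differences in these genes were not detectable at this depth.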
